A study of Mus musculus with 8 samples.

Results

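Endothelial, lymphatic and angiogenic genes were followed in RNA-seq data from mouse inguinal white adipose tissue, the subcutaneous fat of the groin. The set is 33 named genes, taken by symbol with no threshold on their values. All 33 were among the 22869 genes of the count table, and all 33 passed the filter on low counts that left 15002 genes for testing. Libraries of polyadenylated RNA were compared between wild-type mice and mice carrying a Fabp4-Ebf2 transgene, with 4 libraries per genotype. All animals were of mixed background, were about 6 weeks old and were kept on normal chow at room temperature. Ebf2 encodes a transcription factor of brown and beige fat cells. Fabp4 regulatory sequence, also called aP2, drives expression in adipocytes and is known from other mouse lines to be active in some endothelial cells and macrophages as well. Nothing in the labels says that the libraries come from different animals, and the p-values therefore reflect only how far these libraries spread.

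Blood vessels in fat bring oxygen, hormones and lipid to the adipocytes and are lined by endothelial cells. Their growth is governed by vascular endothelial growth factors (VEGF) acting on the receptor kinases FLT1, KDR and FLT4, and their stability by angiopoietins acting on TEK. Brown fat is densely vascularised, and its adipocytes secrete VEGF-A. Lymphatic endothelial cells form a separate set of vessels under the control of the transcription factor PROX1. In whole tissue, fewer endothelial cells and less RNA of a gene per cell cannot be told apart.

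The libraries held 16.9 to 24.7 M reads over all genes. Levels are given in CPM, read counts scaled to the normalised library size. Ebf2 was at 231 to 575 CPM in Fabp4-Ebf2 and at 14.9 to 37 CPM in wild type, so the labels were borne out in every library. The thermogenic gene Ucp1 rose (log2 fold change 5.03, edgeR adjusted p = 0.0213), from 35.1 ± 42.6 to 1146 ± 729 CPM (SD, n = 4). The labels state that lymph nodes were removed, yet the 12 lymphocyte and lymph node markers summed to 1944 to 2820 CPM in wild-type libraries and 1646 to 2251 CPM in Fabp4-Ebf2. Skeletal muscle markers, 14 genes, summed to 373 to 1148 CPM in wild-type libraries and 25 to 358 CPM in Fabp4-Ebf2, with 1 of 14 past the test and all 14 lower in mean. The 7 adipocyte markers summed to 18432 to 26279 CPM in wild-type libraries and 15592 to 22827 CPM in Fabp4-Ebf2.

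Vessel-specific genes are often controlled through sites for ETS transcription factors, a family that includes the members Erg and Fli1. RefSeq start sites of the GRCm38.p6 build gave promoter sequence for 19 of the 33 genes, in 25 windows of 250 bases before a start. The word AGGAAG, an ETS core searched on both strands, was present in 10 of these 25 windows (40%), against 29.5% of all 32851 windows of the same length. The EBF word, TCCC and GGGA with any 2 bases between, was present in 0 of the 25, against 0.779% of all windows. The SOX word ACAAT was present in 6 windows (24%, against 27.7%), and the hypoxia response word ACGTG in 2 (8%, against 16.6%), 1 of them before a start of Vegfa. Matches of different words may share bases, and a match is only a description of the letters. The 4 windows with at least 2 ETS words are shown because they are the densest in the set, with the words in capitals, 5′ to 3′ on the gene's strand. They lie at chr2:26580833-26581082 (plus strand, Egfl7), chr2:32646345-32646594 (plus, Eng), chr3:137340828-137341077 (plus, Emcn) and chr5:147726012-147726261 (minus, Flt1).
Egfl7: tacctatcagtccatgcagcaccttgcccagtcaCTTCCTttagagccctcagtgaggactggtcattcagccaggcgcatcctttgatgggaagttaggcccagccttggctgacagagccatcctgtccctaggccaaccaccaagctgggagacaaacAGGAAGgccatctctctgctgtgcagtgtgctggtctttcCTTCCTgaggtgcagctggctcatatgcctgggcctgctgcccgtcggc
Eng: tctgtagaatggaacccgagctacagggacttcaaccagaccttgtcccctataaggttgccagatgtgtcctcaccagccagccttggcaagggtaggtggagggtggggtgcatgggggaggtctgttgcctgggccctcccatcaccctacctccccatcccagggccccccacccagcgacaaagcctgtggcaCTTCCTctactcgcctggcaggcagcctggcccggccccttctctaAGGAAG
Emcn: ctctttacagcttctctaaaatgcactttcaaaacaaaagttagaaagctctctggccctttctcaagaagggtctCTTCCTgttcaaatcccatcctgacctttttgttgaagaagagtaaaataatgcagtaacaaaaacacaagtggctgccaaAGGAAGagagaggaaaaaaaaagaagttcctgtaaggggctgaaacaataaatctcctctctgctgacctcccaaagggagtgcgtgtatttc
Flt1: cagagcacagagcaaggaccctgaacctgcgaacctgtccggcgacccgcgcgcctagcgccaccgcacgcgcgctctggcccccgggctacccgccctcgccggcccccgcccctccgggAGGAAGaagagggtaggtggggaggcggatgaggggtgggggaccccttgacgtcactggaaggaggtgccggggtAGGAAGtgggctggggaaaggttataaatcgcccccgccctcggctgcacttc
The Egfl7 window held 3 of the words and the others 2 each. Egfl7 is also the host of an endothelial microRNA, mmu-miR-126a-3p, at chr2:26591402-26591423, which is printed here with its seed (bases 2 to 8) in capitals and was not measured in these libraries of polyadenylated RNA.
mmu-miR-126a-3p: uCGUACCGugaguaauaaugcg

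No endothelial, lymphatic or angiogenic member passed the test as higher in Fabp4-Ebf2 fat. Of the 33 genes, 0 rose, 1 fell (Nos3) and 32 did not pass the quasi-likelihood test of edgeR after Benjamini-Hochberg adjustment at 0.05. Over all tested genes 3.42% passed, 2.8% as higher and 0.62% as lower. No member was higher at an unadjusted p under 0.05, and 6 were lower, against 10.2% and 7.27% of all tested genes (17.5% in either direction). DESeq2, limma-voom and edgeR's exact test also placed 0 members higher. The log2 fold changes ran from -0.74 to 0.20 with a median of -0.21, while the median of all tested genes was -0.01. They were below 0 for 29 of 33 members (87.9%), against 51.6% of all tested genes. Libraries of the genotypes did not overlap for 3 members, Nos3, Esam and Plvap, all lower in Fabp4-Ebf2. Of all tested genes 11.4% did not overlap, 7.35% as higher and 4.07% as lower. Genes expressed in the same cells vary together, so the members are not separate observations.

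**Figure D1:**
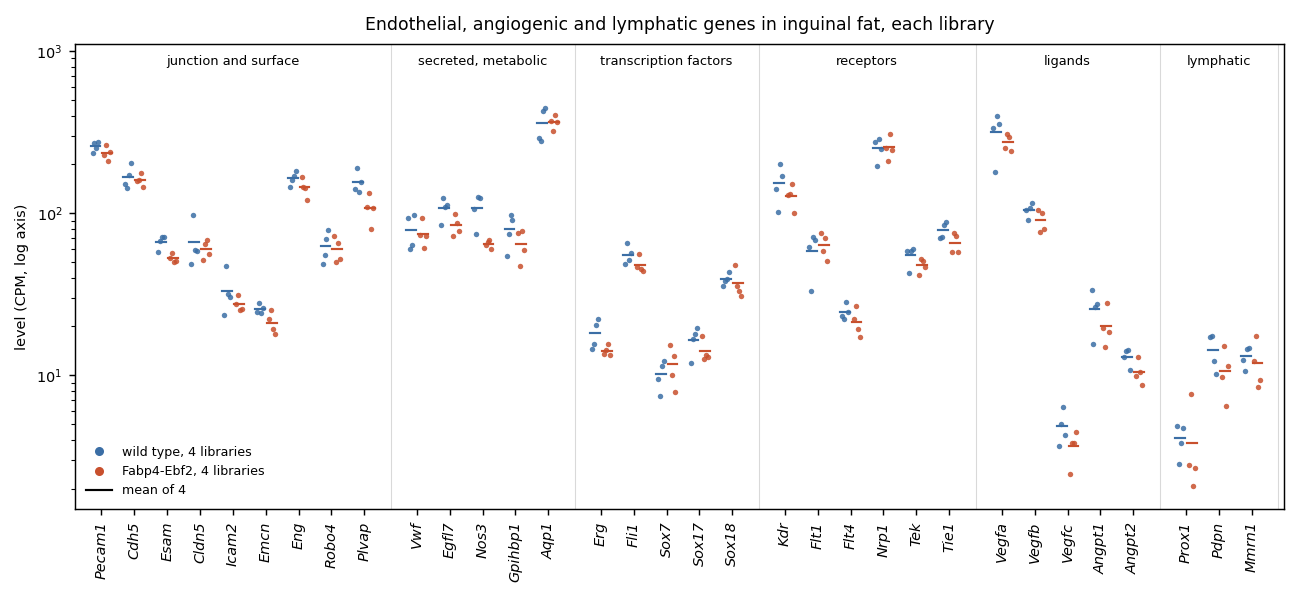
Levels of the 33 genes in each library (CPM, log axis), grouped by role, with wild type in blue, Fabp4-Ebf2 in orange and a line at each mean of 4. The points of the genotypes overlap for 30 genes, and Nos3, Esam and Plvap are lower in Fabp4-Ebf2 without overlap.

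In the fit on genotype alone, these data bounded the size of any rise gene by gene, with intervals not adjusted for the number of genes. The 95% interval of the fold change lay below a 2-fold rise for all 33 genes and below a 1.5-fold rise for 30, the exceptions being Sox7, Flt1 and Prox1. It lay above a 2-fold fall for 32, the exception being Nos3, and inside 1.5-fold in both directions for 15. The bounds depend on the fit. With the muscle covariate the log2 fold change of Prox1 was 0.83 (SE 0.42), less than 1 SE from a 2-fold rise. For Pecam1, the adhesion molecule that joins neighbouring endothelial cells and is the usual marker of vessels, the interval ran from 0.774 to 1.05 times the wild-type level. For Cdh5, the cadherin of endothelial junctions, it ran from 0.786 to 1.16 times.

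**Figure D2:**
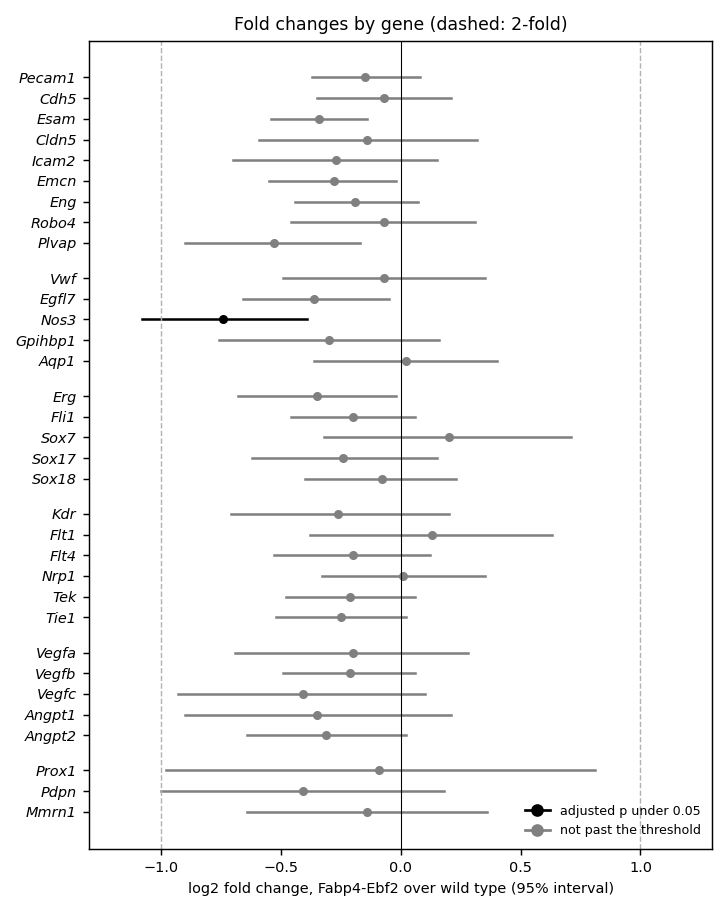
Log2 fold changes of the 33 genes, Fabp4-Ebf2 over wild type, with 95% intervals from edgeR, and dashed lines at 2-fold. Nos3, in black, is the member past the threshold at -0.74, and the others lie between -0.53 and 0.20.

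Among the ligands, Vegfa was the most abundant, and it did not pass the test. This gene encodes VEGF-A, the main growth signal for blood vessels, which adipocytes secrete. It was at 334, 180, 395 and 357 CPM in wild-type libraries and at 253, 308, 296 and 242 CPM in Fabp4-Ebf2. The genotypes overlapped because wild type replicate 2 was below every Fabp4-Ebf2 library while the other 3 wild-type libraries were above them. The log2 fold change was -0.20 (SE 0.22, edgeR adjusted p = 0.65), with an interval of 0.619 to 1.22 times. In the authors' deposited table the 6 Vegfa transcripts had log2 fold changes from -0.22 to -0.16. How reads common to these transcripts were counted is not stated, so they are not taken as separate measurements of splice forms.

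The other ligands were also lower in mean without passing. Vegfb, a FLT1 ligand that in mice has been linked to fatty acid uptake by endothelium, was at 105, 90.4, 108 and 115 CPM in wild-type libraries and 104, 76.3, 100 and 80.1 CPM in Fabp4-Ebf2 (log2 fold change -0.21, SE 0.12, edgeR adjusted p = 0.404). Vegfc, the FLT4 ligand that drives lymphatic growth, was scarce, at 3.68 to 6.34 CPM in wild-type libraries and 2.46 to 4.46 CPM in Fabp4-Ebf2 (-0.41, SE 0.23). Angpt1, the angiopoietin that activates TEK and steadies vessels, had 25.8 ± 7.49 CPM in wild-type libraries and 20.3 ± 5.59 CPM in Fabp4-Ebf2 (SD, n = 4). Angpt2, which can oppose it, had 13 ± 1.64 and 10.5 ± 1.76 CPM (log2 fold change -0.31, SE 0.15, edgeR adjusted p = 0.313). There were 38.5 to 90.5 Angpt2 reads per 100 Angpt1 reads in wild type and 37.4 to 86.3 in Fabp4-Ebf2, ranges that overlap almost fully.

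Per kilobase of transcript, the level of the ligands in wild type was 160 CPM per kb for Vegfa, 81.5 for Vegfb, 6.05 for Angpt1, 3.66 for Angpt2 and 1.97 for Vegfc. In Fabp4-Ebf2 the same order held, at 139, 70.4, 4.76, 2.95 and 1.48 CPM per kb. Vegfa was the highest of all 33 genes per length in wild type and Prox1 the lowest, at 0.515 CPM per kb. Vegfa and Aqp1, at 137 CPM per kb in wild type, were both at 139 CPM per kb in Fabp4-Ebf2.

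None of the 6 receptors passed. Kdr, the main signalling receptor for VEGF-A, was at 141, 101, 202 and 170 CPM in wild-type libraries and 130, 131, 152 and 100 CPM in Fabp4-Ebf2 (log2 fold change -0.26, SE 0.20, edgeR adjusted p = 0.544). Flt1, which binds VEGF-A tightly and can act as a decoy, was at 62, 33.1, 71.2 and 68.2 CPM in wild-type libraries and 75.7, 58.4, 70.4 and 51 CPM in Fabp4-Ebf2. Its log2 fold change was 0.13 (SE 0.23), and wild type replicate 2 was again the lowest. Nrp1, a co-receptor for VEGF-A and semaphorins that is not restricted to endothelium, was nearly equal in mean, at 252 ± 41.3 and 254 ± 40.7 CPM (SD, n = 4), with an interval of 0.795 to 1.28 times. Tek, the angiopoietin receptor, had 55 ± 8 CPM in wild-type libraries and 47.6 ± 4.6 CPM in Fabp4-Ebf2 (edgeR adjusted p = 0.408). Tie1, its partner receptor, had 78.4 ± 9.02 and 65.7 ± 9.32 CPM (edgeR adjusted p = 0.309).

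The 5 endothelial transcription factors did not pass either. Erg, an ETS factor that maintains endothelial identity, was at 14.6, 15.5, 20.3 and 22.1 CPM in wild-type libraries and 13.5, 14.3, 15.6 and 13.3 CPM in Fabp4-Ebf2 (log2 fold change -0.35, SE 0.15, edgeR adjusted p = 0.254). The genotypes overlapped, with wild type replicates 1 and 2 at the level of Fabp4-Ebf2. Fli1, an ETS factor shared with blood cells, had a log2 fold change of -0.20 (SE 0.12). The SOXF factors, which act in arterial and lymphatic specification, did not move together. Sox7 was higher in mean by 0.20 (SE 0.23), Sox17 lower by -0.24 (SE 0.17) and Sox18 close to level at -0.08 (SE 0.14), all 3 on the log2 scale. Sox7 was the only SOXF gene whose Fabp4-Ebf2 mean was above the wild-type mean, at 7.93 to 15.4 CPM against 7.4 to 12.3 CPM, and the test of the difference between the 3 genes was not run.

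All 9 junction and surface genes had log2 fold changes below 0, and none passed. Plvap, which forms the diaphragms of fenestrated endothelium and caveolae, showed the widest difference of these genes, at 140, 190, 135 and 156 CPM in wild-type libraries and 109, 133, 80.4 and 107 CPM in Fabp4-Ebf2. The lowest wild-type library lay just above the highest Fabp4-Ebf2 library. Its log2 fold change was -0.53 (SE 0.16, edgeR adjusted p = 0.117). Plvap passed in DESeq2 (adjusted p = 0.0363) and in edgeR's exact test (0.0391) but not in limma-voom (0.116). Esam, an adhesion molecule of endothelial tight junctions, was at 57.6, 67.3, 71 and 71.1 CPM in wild-type libraries and 53.2, 57.1, 49.9 and 50.8 CPM in Fabp4-Ebf2. The groups were adjacent without overlap (log2 fold change -0.34, SE 0.09, edgeR adjusted p = 0.0744). Esam passed in DESeq2 (adjusted p = 0.0149) and in edgeR's exact test (0.0424) but not in limma-voom (0.0876). On leaving out replicate 1 of wild type or replicate 2 of Fabp4-Ebf2 it also passed in edgeR (adjusted p = 0.0483 and 0.0463), as did Plvap without Fabp4-Ebf2 replicate 2 (0.0442).

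The other junction and surface genes overlapped between genotypes. Pecam1 was at 236 to 276 CPM in wild-type libraries and 211 to 263 CPM in Fabp4-Ebf2, and Cdh5 at 142 to 204 CPM and 144 to 178 CPM. Eng, a co-receptor for BMP ligands on endothelium, had 164 ± 15.2 and 144 ± 19.1 CPM (SD, n = 4, edgeR adjusted p = 0.426). Emcn, a sialomucin of veins and capillaries, did not pass (edgeR adjusted p = 0.255), with a log2 fold change of -0.28 and an SE of 0.12. Cldn5, a tight junction claudin, and Icam2, a leukocyte adhesion ligand, were each highest in wild type replicate 2, at 97.8 and 47.2 CPM, compared with 48.5 to 59 and 23.4 to 31.5 CPM in the remaining 3. Their log2 fold changes were -0.14 (SE 0.20) and -0.27 (SE 0.19). Robo4, a guidance receptor of endothelium, was at 48.6 to 79.1 CPM and 50.1 to 71.9 CPM (-0.07, SE 0.17).

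Nos3, the endothelial nitric oxide synthase whose product relaxes vessel walls, was the only member that fell. It was at 106, 74.8, 126 and 124 CPM in wild-type libraries and at 64, 66.6, 68.5 and 59.9 CPM in Fabp4-Ebf2. The Fabp4-Ebf2 libraries were tightly grouped and lay below every wild-type library, of which replicate 2 was the nearest. The log2 fold change was -0.74 (SE 0.15, edgeR adjusted p = 0.033), or 1.67-fold lower, with means of 64.7 ± 3.7 and 108 ± 23.8 CPM (SD, n = 4). It was also the only member called in the authors' deposited table, at a log2 fold change of -0.70 and an FDR of 0.00039. By that FDR the authors' deposited table placed 4.43% of the tested genes higher and 1.71% lower. The call of Nos3 was lost on leaving out replicate 1, 3 or 4 of either genotype (edgeR adjusted p = 0.0712 to 0.0992), with log2 fold changes from -0.76 to -0.66. With skeletal muscle markers as a covariate its log2 fold change was -0.65 (SE 0.26, edgeR adjusted p = 0.605), in a fit where 1 gene of all passed. The muscle markers were lower in the same libraries and their part in the result was not tested further.

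Set against other endothelial transcripts, the difference in Nos3 varied with the gene used. There were 69.9, 52.6, 72.8 and 60.9 Nos3 reads per 100 Cdh5 reads in wild type and 40.6, 41.7, 38.4 and 41.5 in Fabp4-Ebf2, without overlap. Per 100 Pecam1 reads the values were 27.6 to 49.6 and 25.3 to 32.5, which overlap through wild type replicate 2. RefSeq genes of GRCm38 place Atg9b across part of Nos3, and Atg9b was at 6.5 CPM in wild-type libraries and 4.61 CPM in Fabp4-Ebf2 (log2 fold change -0.49, edgeR adjusted p = 0.299). No source here states whether counting used strand, and reads in the overlap cannot be told apart.

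The remaining secreted and metabolic endothelial genes did not pass. Gpihbp1, which carries lipoprotein lipase to the capillary lumen, was at 54.7, 74.7, 97.9 and 90.5 CPM in wild-type libraries and 75.1, 46.9, 77.4 and 59.3 CPM in Fabp4-Ebf2 (log2 fold change -0.30, SE 0.20, edgeR adjusted p = 0.48). Aqp1, a water channel of capillary endothelium, was level at 360 ± 86.9 and 365 ± 33.5 CPM (SD, n = 4). Egfl7, a secreted protein of growing vessels, was at 84.1 to 124 CPM in wild-type libraries and 71.8 to 99.2 CPM in Fabp4-Ebf2 (-0.36, SE 0.14, edgeR adjusted p = 0.218). Vwf, the clotting protein stored by endothelium, had 78.6 ± 19.9 and 74.8 ± 13.2 CPM (edgeR adjusted p = 0.869).

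The 3 lymphatic members did not pass, and the Fabp4-Ebf2 libraries were widely spread. Prox1, the factor that specifies lymphatic endothelium and is also expressed in some muscle fibres, was at 4.88, 2.83, 3.84 and 4.76 CPM in wild-type libraries and 2.79, 7.67, 2.08 and 2.66 CPM in Fabp4-Ebf2. Replicate 2 stood apart from the other 3 Fabp4-Ebf2 libraries, which were all below the wild-type mean of 4.08 CPM. The log2 fold change was -0.09 (SE 0.40) and went to -0.70 without that library. Its skeletal muscle markers summed to 358 CPM, compared with 25 to 81.7 CPM in the remaining 3, and their part in the Prox1 value was not tested. Pdpn, a mucin-like protein of lymphatic endothelium and of fibroblasts, was at 17.1, 17.5, 12.2 and 10.2 CPM in wild-type libraries and 9.73, 15.1, 6.47 and 11.4 CPM in Fabp4-Ebf2 (log2 fold change -0.41, SE 0.26, edgeR adjusted p = 0.443). Mmrn1, a multimerin of lymphatic endothelium and platelets, had 13.1 ± 1.92 and 11.9 ± 4.02 CPM (SD, n = 4). Flt4, the VEGF-C receptor, was at 22.1 to 28.5 CPM and 17.1 to 26.6 CPM (-0.20, SE 0.15, edgeR adjusted p = 0.498). Prox1, Pdpn, Mmrn1 and Flt4 were each highest of the Fabp4-Ebf2 libraries in replicate 2.

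Other lymphatic genes, listed with earlier results known, included 2 that rose. Of 9 listed, 6 had enough reads to test, and 2 rose, 0 fell and 4 did not pass, where 2.8% of all tested genes rose and 0.62% fell. Lyve1, a hyaluronan receptor of lymphatic endothelium that tissue macrophages also carry, was at 33.4, 45.4, 103 and 85.4 CPM in wild-type libraries and 267, 293, 317 and 247 CPM in Fabp4-Ebf2 (log2 fold change 2.07, SE 0.32, edgeR adjusted p = 0.0134). Nrp2, a co-receptor for VEGF-C and semaphorins found on veins and lymphatics, was at 61.7, 53.1, 61.6 and 70.5 CPM in wild-type libraries and 85.2, 96.6, 113 and 102 CPM in Fabp4-Ebf2. It rose 1.61-fold (log2 fold change 0.69, SE 0.11, edgeR adjusted p = 0.0161), and its adjusted p was 0.0557 without wild type replicate 3. There were 21.4 to 28.2 Nrp2 reads per 100 Nrp1 reads in wild type and 33.8 to 45.8 in Fabp4-Ebf2, without overlap. Reln, which lymphatic vessels secrete, did not pass (-0.52 in log2, edgeR adjusted p = 0.215), and the chemokine gene Ccl21a had 2 to 7 reads per library and was not tested. A further 2 listed genes had 0 reads in every library. How reads common to several genes were counted is not stated, so few reads need not mean low expression. The 7 macrophage markers found summed to 1502 to 2820 CPM in wild-type libraries and 1404 to 2417 CPM in Fabp4-Ebf2, with 0 of 7 past the test. With the muscle covariate the log2 fold changes were 1.91 for Lyve1 (edgeR adjusted p = 0.338) and 0.65 for Nrp2 (0.422), close to those without it. Neither passed in that fit, and nor did the transgene Ebf2 (3.71, adjusted p = 0.105).

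**Figure D3:**
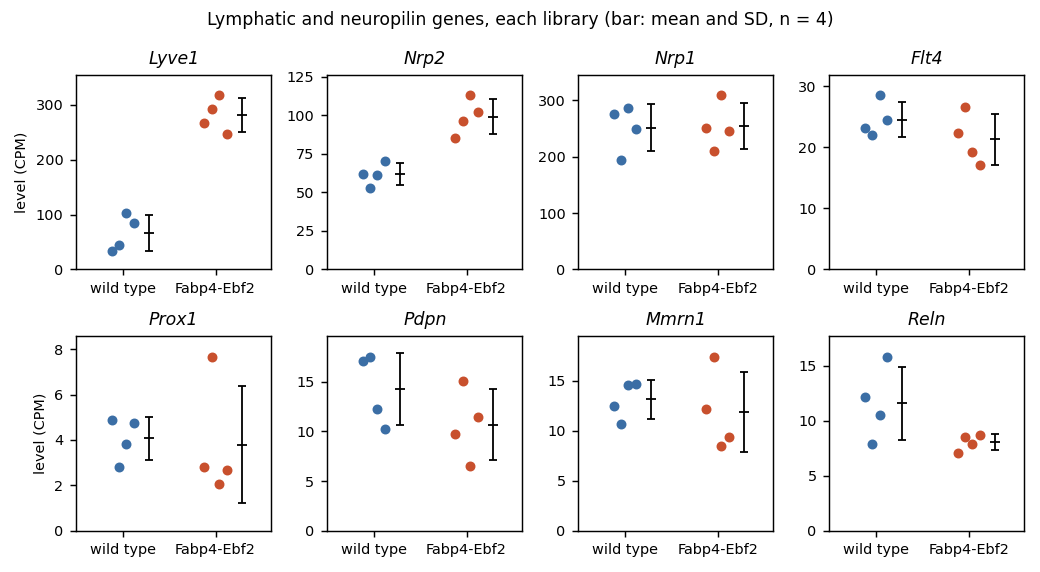
Levels (CPM) of 8 lymphatic and neuropilin genes in each library, with wild type in blue, Fabp4-Ebf2 in orange and bars for mean and SD (n = 4). Lyve1 and Nrp2 are higher in Fabp4-Ebf2 without overlap, while Prox1, Pdpn, Mmrn1, Flt4, Nrp1 and Reln overlap.

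Genes around the members were counted by edgeR's quasi-likelihood test. Other tools are named where they differed on genes past its threshold or on the gene of smallest p in a list. Of 33 other endothelial genes 0 rose and 0 fell. Their median difference was -0.23 on the log2 scale, and the gene with the smallest p was Ramp2, part of the adrenomedullin receptor (log2 fold change -0.33, SE 0.09, edgeR adjusted p = 0.0993). Of 22 genes of tip cells, Notch signalling, arteries and veins 0 rose and 0 fell, with a median of -0.14, and Gja4, an arterial connexin, had the smallest p (-0.38, edgeR adjusted p = 0.247). At an unadjusted p under 0.05, 3 and 2 genes of these lists were lower and 0 higher, where 7.27% of all tested genes were lower and 10.2% higher. Ramp2 passed in DESeq2 (adjusted p = 0.0381) but not in limma-voom (0.106) or in edgeR's exact test (0.0706).

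Secreted factors beyond the VEGF and angiopoietin genes included 2 that rose of 24 tested, and 0 fell. Over all tested genes 2.8% rose and 0.62% fell. Their median difference was -0.12 on the log2 scale. Adm, which encodes the vasodilator peptide adrenomedullin, was at 4.57, 5, 8.36 and 7.02 CPM in wild-type libraries and 35.8, 23.3, 39.9 and 37.5 CPM in Fabp4-Ebf2 (log2 fold change 2.45, SE 0.23, edgeR adjusted p = 0.00224). Adm and Lyve1 lie on the same chromosome, 7, and whether their rises are separate results was not tested. Angptl4, an inhibitor of lipoprotein lipase that is induced by fatty acids and fasting, rose 1.99-fold, from 307 ± 21.6 to 611 ± 180 CPM (SD, n = 4, edgeR adjusted p = 0.0336). It passed without Fabp4-Ebf2 replicate 2 and failed without any other single library, at edgeR adjusted p = 0.0591 to 0.107. With the muscle covariate the log2 fold change was 0.53 for Angptl4 (SE 0.32, edgeR adjusted p = 0.815) and 1.89 for Adm (SE 0.29, 0.105), and neither passed. The authors' deposited table also called Fgf1 (log2 fold change 1.14, FDR 0.000405) and Thbs1 (1.03, 0.0165) higher and Angptl2 lower (-0.77, 0.000542). In edgeR's quasi-likelihood test here their adjusted p-values were 0.0785, 0.246 and 0.0716.

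Oxygen sensing genes did not pass. Of 9 genes of the hypoxia factor pathway 0 rose and 0 fell. Their median difference was 0.09 on the log2 scale, and Egln1, an oxygen-dependent prolyl hydroxylase, had the smallest p (0.35, SE 0.13, edgeR adjusted p = 0.198). Of 11 hypoxia-induced genes 0 rose and 0 fell in edgeR, with a median of -0.00. The smallest p was that of the glycolytic gene Pgk1 (log2 fold change 0.58, SE 0.14, edgeR adjusted p = 0.0521). It passed in DESeq2 (adjusted p = 0.00431) and in edgeR's exact test (0.009) but not in limma-voom (0.0671). The authors' deposited table called Pgk1 (FDR 0.0343) and the glycolytic gene Ldha (0.0474) higher. Of 12 mural cell markers, genes of the pericytes and smooth muscle that wrap vessels, 0 rose and 0 fell, with a median of -0.25. Pdgfrb, the receptor that recruits pericytes, had the smallest p of these (-0.26, SE 0.10, edgeR adjusted p = 0.209). The pericyte gene Rgs5 was higher in mean at nearly the same p (0.61, SE 0.24, edgeR adjusted p = 0.217), and the authors' deposited table called it higher (FDR 0.031).

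Markers of other cells were counted in the same way. Of the 7 thermogenic markers 4 rose in edgeR's quasi-likelihood test (Ucp1, Cox7a1, Cidea and Cox8b), with a median difference of 2.06 on the log2 scale. Over all tested genes 2.8% rose in that test. The authors' deposited table called 6 of the 7 higher, against 4.43% of the tested genes, adding Ppargc1a (FDR 0.00113) and Dio2 (0.00372). In edgeR's quasi-likelihood test here the adjusted p-values of Ppargc1a and Dio2 were 0.142 and 0.225. The call of Ucp1 was lost without wild type replicate 3 or 4 or without replicate 1 of Fabp4-Ebf2 (edgeR adjusted p = 0.0545 to 0.0779), and that of Cox8b on leaving out the same 3 libraries or replicate 2 of wild type (0.0555 to 0.0693). Of the 14 skeletal muscle markers 13 were lower at an unadjusted edgeR p under 0.05, against 7.27% of all tested genes, with a median of -2.09. The authors' deposited table called 13 of the 14 lower, against 1.71% of the tested genes. After adjustment in edgeR's quasi-likelihood test, the 1 muscle marker that fell was Casq1, a calcium store protein of muscle fibres (-2.24, SE 0.51, edgeR adjusted p = 0.0474). Its call was lost in limma-voom (adjusted p = 0.063), with the muscle covariate (-0.71, 0.857) and on leaving out any library but Fabp4-Ebf2 replicate 2 (edgeR adjusted p = 0.0627 to 0.143). By the same test no marker passed among the 12 of lymphocytes and lymph nodes (median -0.31), the 8 of fibroblasts and progenitors (-0.45), the 7 of adipocytes (-0.06), the 7 of macrophages (-0.01) or the 5 of erythrocytes (-0.64). The smallest p in each of these lists belonged to Madcam1 (-0.68, edgeR adjusted p = 0.208), Pi16 (-0.54, 0.142), Cidec (-0.62, 0.132), Emr1 (1.03, 0.272) and Hbb-b2 (-0.66, 0.165). Cidec, a lipid droplet protein, passed in DESeq2 (adjusted p = 0.0117) and in edgeR's exact test (0.0243). Emr1, a macrophage surface receptor, was at 282 CPM in Fabp4-Ebf2 replicate 4 and at 73.5 to 111 CPM in the remaining 3, and its log2 fold change was 0.40 without that library. The authors' deposited table called Emr1 higher (FDR 0.0192) and, of these 5 lists, placed 1 adipocyte marker (Cidec), 2 fibroblast markers (Pi16 and Col1a1) and 4 erythrocyte markers lower. Hbb-b2 had the same counts as its near-identical copy Hbb-b1. The part of these cells in the members' values was not tested.

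The members differed by library within wild type. The ranks given here were counted over the 33 members only, so whether they are particular to these genes was not tested. Wild type replicate 2 was the lowest of its genotype for 15 of 33 genes, among them Vegfa, Kdr, Flt1, Tek, Nrp1, Angpt1 and Nos3. The same library was the highest of its genotype for 7, among them Cldn5, Icam2, Plvap, Egfl7 and Fli1. Its lymphocyte markers summed to 2820 CPM, and those of the remaining wild-type libraries to 1944 to 2060 CPM, and its adipocyte markers summed to 18432 CPM compared with 21862 to 26279 CPM. Wild type replicate 1 was the lowest of its genotype for nearly as many genes, 14, among them Pecam1, Esam, Eng, Erg and Tie1. Its skeletal muscle markers summed to 1148 CPM, the most of any library. Wild type replicate 4 was the highest for 15 genes and Fabp4-Ebf2 replicate 4 the lowest for 14. Fabp4-Ebf2 replicate 2, which had the least Ebf2 and Ucp1 of its genotype (231 and 348 CPM), was the highest for 16 genes, including all 3 lymphatic members. Its lymphocyte markers summed to 2251 CPM, and those of the remaining 3 to 1646 to 1846 CPM. Leaving out both libraries numbered 2, a choice made after seeing the data, 6 members fell and 0 rose. The 6 were Nos3, Esam, Plvap, Tek, Vegfa and Prox1, in a fit with 1245 genes past the threshold in either direction instead of 513. How many of all genes fell in that fit was not counted. In that fit the log2 fold change was -0.47 for Vegfa (SE 0.10, edgeR adjusted p = 0.0363), -0.36 for Tek (SE 0.08) and for Prox1 -0.84 (SE 0.19). Wild type replicate 2 was the lowest of its genotype for Nos3, Tek, Vegfa and Prox1. Fabp4-Ebf2 replicate 2 was the highest of its genotype for Esam, Plvap, Tek, Vegfa and Prox1. Dropping libraries chosen in this way favours a fall in these genes, so the fit is no separate evidence for it. The part of the lymphocyte, adipocyte and muscle markers in these differences was not tested.

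**Figure D4:**
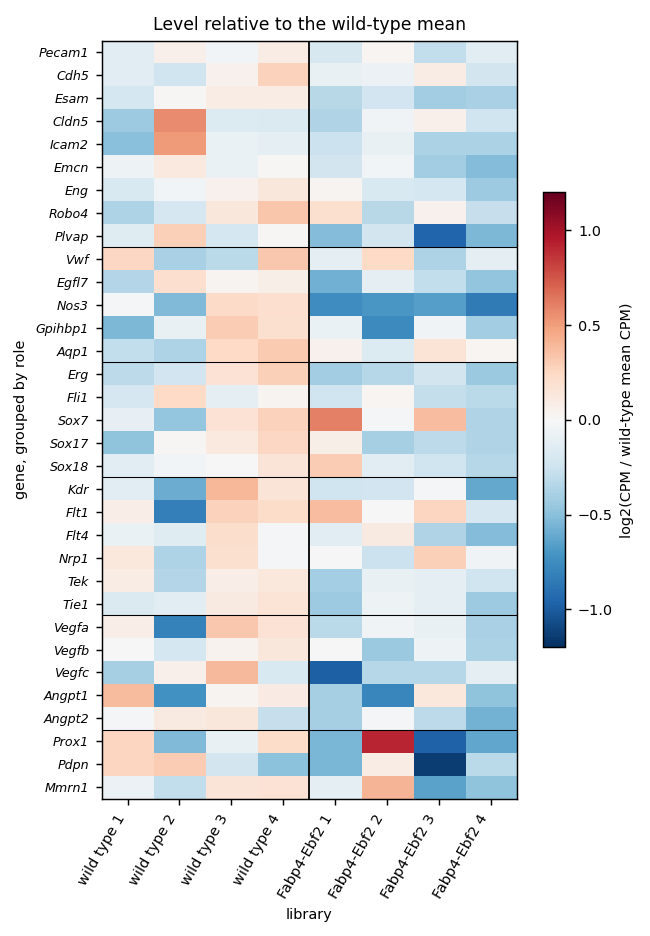
Level of each gene in each library as log2 of CPM over the wild-type mean CPM, with genes in rows grouped by role and libraries in columns. Wild type replicate 2 is low for Vegfa, Kdr, Flt1 and Angpt1 and high for Cldn5 and Icam2, Nos3 is low in all 4 Fabp4-Ebf2 libraries, and Fabp4-Ebf2 replicate 2 is high for Prox1 and Mmrn1.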

How the data were processed

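RNA-seq of polyadenylated RNA from inguinal fat was analysed for 4 wild-type and 4 Fabp4-Ebf2 libraries, made with TRIzol and TruSeq kits per the labels. The deposited read counts of 28644 RefSeq transcripts were made by the authors with mm9 as the build, per the submitters' processing notes. Which aligner and counter were used, and whether strand was, is not given in the sources used here. The table also holds the authors' edgeR log2 fold change and, as an adjusted p-value per the file headers, the authors' FDR. A further 8 per-sample columns were not used. A gene was represented by the transcript marked best, or else by the one with most reads (902 genes). A count of 3 reads was worth 0.122 to 0.178 CPM, and every member had reads in every library.

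The test was that of edgeR 4.0.16, run in R 4.3.3: glmQLFit and glmQLFTest on genotype alone after filterByExpr and TMM scaling, and Benjamini-Hochberg adjustment at 0.05 over all 15002 tested genes. SEs are the absolute log2 fold change over the square root of F, and 95% intervals use the moderated degrees of freedom. The procedure was tested on simulated data. Alternatives were DESeq2 1.42.0, limma-voom (limma 3.58.1), RLE factors, no filter, a replicate block, a muscle covariate, the transcript with most reads and each library left out. Leaving out both libraries numbered 2 and edgeR's exact test were added after seeing the data. The members and lists were chosen with earlier results of these data known. Named genes were all members and, of each context list, up to 4 genes past the threshold or else the 1 with the smallest p. Others (Reln, Ccl21a, Atg9b, Fgf1, Thbs1, Angptl2, Rgs5, Col1a1, Ldha, Ppargc1a, Dio2) were named after their values were seen. Transcript lengths came from GENCODE M21, matched by RefSeq accession for all 33 members. Figures were drawn with matplotlib 3.10.9.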

Additional observations from a re-analysis of the deposited data

Results flagged for a closer look

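Each of 53 genes was looked at in both genotypes for 1 library far from the other 3 (106 groups, of which chance flags about 1 in 20). Among the members, Sox17 was at 17.5 CPM in Fabp4-Ebf2 replicate 1, above 12.6 to 13.4 CPM in the others. Tek was at 43 CPM in wild type replicate 2, below 58.2 to 60.2 CPM. Prox1 was at 7.67 CPM in Fabp4-Ebf2 replicate 2, above 2.08 to 2.79 CPM. Among the genes set beside them, the muscle gene Casq1 was at 25.7 CPM in wild type replicate 1 and at 4.91 CPM in Fabp4-Ebf2 replicate 2, each the highest of its genotype. Ucp1 was at 98.5 CPM and the haemoglobin gene Hbb-b2 at 56 CPM in wild type replicate 1, and Cox8b was at 398 CPM in Fabp4-Ebf2 replicate 3, again the highest of their genotypes.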

How the results depend on the processing

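The count of 0 members higher was 0 under all 17 alternatives. Members lower, 1 in the reported fit, were 3 with DESeq2, 3 with edgeR's exact test, 6 without both libraries numbered 2, 0 with the muscle covariate and 0 to 3 with single libraries left out. Without wild type replicate 1 the 1 member lower was Esam and not Nos3. All genes past the threshold, 513 in the reported fit, were 1211, 1004, 1245, 1 and 116 to 918 under the same alternatives. Same-numbered libraries of the 2 genotypes correlated at -0.13, 0.33, 0.14 and 0.06 in their deviations from the genotype means. Differently numbered ones correlated at -0.33 to 0.18. The sample titles name no pairs. The count columns, however, are numbered with the genotypes in turn, so libraries of the same replicate number are adjacent in that order. What the order stands for is not stated. Replicate numbers were not taken as pairs, though so few values cannot exclude pairing. A replicate block gave 2 members lower (Nos3 and Plvap) and 598 genes, and Angptl4 (edgeR adjusted p = 0.055) and Cox8b (0.0586) were past the threshold no more. Signs changed in 28 of 561 fits of single members, none past the threshold. With the muscle covariate the log2 fold change was 0.22 for Vwf, -0.21 for Aqp1, 0.11 for Flt4, -0.02 for Nrp1, 0.06 for Vegfa, 0.00 for Angpt2, 0.83 for Prox1 and 0.30 for Mmrn1. Without both libraries numbered 2 it was 0.07 for Cldn5, -0.04 for Aqp1, -0.04 for Flt1 and -0.03 for Nrp1. With single libraries left out it ran from -0.15 to 0.04 for Cdh5, -0.26 to 0.11 for Cldn5, -0.18 to 0.05 for Robo4, -0.20 to 0.05 for Vwf, -0.09 to 0.14 for Aqp1, -0.08 to 0.23 for Flt1, -0.10 to 0.08 for Nrp1 and -0.70 to 0.11 for Prox1. The cause of these changes was not tested. With 4 libraries a genotype, the 95% interval stayed inside 1.5-fold in both directions for 15 of the 33 members, and for the others it reached a 1.5-fold change in at least 1 direction.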
